A study of Mus musculus with 24 samples.

Results

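The genes described here are the core enzymes of hepatic glucose production, Pck1, G6pc, Fbp1, Pcx, Slc37a4 and Got1, and regulators of their transcription, Ppargc1a, Crtc2, Creb3l3 and Foxo1. They were taken as the array probes that carry 1 of these 10 gene names, with control spots left out. All 10 genes were found, on 16 probes of 56605, and each gene was represented by its brightest probe among 23966 genes tested.

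Gluconeogenesis builds glucose from lactate, amino acids and glycerol when no food is absorbed, and the liver is its main site. Its dedicated steps bypass the irreversible reactions of glycolysis, and glucagon, acting through cAMP, raises transcription of their genes while insulin lowers it. CREB with its coactivator CRTC2, the coactivator PGC-1alpha (encoded by Ppargc1a) and the forkhead factor FOXO1 carry these hormone signals to the Pck1 and G6pc promoters.

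Liver RNA came from wild-type C57Bl/6J male mice, 8 weeks old, raised on a chow diet and killed at zeitgeber time 16, in the dark phase. The 4 groups of 6 single mice were mice fasted for 24 h, mice fed chow with 20% glucose in the drinking water for 24 h, mice fed chow with 20% fructose in it for 24 h, and mice fed chow with plain tap water. They are called fasted mice, mice on glucose, mice on fructose and mice on water. No group carries a transgene or a deletion, and every group was killed at the same hour, so the data hold 1 time point of the daily cycle. Each mouse was hybridised to its own 1-colour Agilent array, and the 24 arrays lie on 3 slides with 2 arrays of each group per slide.

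A level is the log2 of the processed probe signal minus the 75th percentile of its array, so levels of different probes are not set against each other. A gene is said to have risen or fallen where limma's moderated test, fitted over all genes and all 24 arrays, gave a Benjamini-Hochberg adjusted p under 0.05. Between 32516 and 36274 probes per array were well above background, and the lowest correlation between arrays of a group was 0.985. The 16 probes were above background on all 24 arrays, none of their spots was saturated, and no spot was marked as an outlier. RNA was made from whole tissue, so fewer cells of a type and less RNA per cell cannot be told apart.

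Because these genes share hormone signals that act on their promoters, the 250 bases before the transcription start of Pck1, G6pc and Ppargc1a are shown from RefSeq (build GRCm38.p6). Capitals mark the cAMP response element core TGACG, read on either strand and so also as CGTCA, and the insulin response core TGTTTTG, or CAAAACA on the other strand. Pck1 lies at chr2:173152823-173153072 on the plus strand, G6pc at chr11:101367466-101367715 on the plus strand, and Ppargc1a at chr5:51567726-51567975 on the minus strand.
Pck1: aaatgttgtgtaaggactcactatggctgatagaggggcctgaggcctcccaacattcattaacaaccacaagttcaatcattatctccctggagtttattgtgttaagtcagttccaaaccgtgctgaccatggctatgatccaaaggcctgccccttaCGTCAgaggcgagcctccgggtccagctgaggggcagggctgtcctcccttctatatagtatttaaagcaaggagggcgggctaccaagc
G6pc: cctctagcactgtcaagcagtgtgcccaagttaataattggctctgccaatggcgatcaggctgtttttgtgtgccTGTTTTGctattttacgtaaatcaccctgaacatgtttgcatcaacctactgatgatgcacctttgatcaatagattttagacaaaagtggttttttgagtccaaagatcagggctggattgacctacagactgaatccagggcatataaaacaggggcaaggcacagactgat
Ppargc1a: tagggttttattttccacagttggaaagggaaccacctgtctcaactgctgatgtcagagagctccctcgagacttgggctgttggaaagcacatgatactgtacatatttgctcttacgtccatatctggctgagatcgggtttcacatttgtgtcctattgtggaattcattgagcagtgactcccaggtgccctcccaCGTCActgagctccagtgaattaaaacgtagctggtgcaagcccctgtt

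The Pck1 window held 1 TGACG core, beginning 90 bases before the start, and the Ppargc1a window held 1, beginning 49 bases before it. In the G6pc window the core was absent, and TGTTTTG began 174 bases before the start. RefSeq gave promoters for 9 of the 10 genes, 13 in all, and the TGACG core stood in at least 1 promoter of 4 genes, Pck1, Ppargc1a, Slc37a4 and Creb3l3. That core was found in 5 of these 13 windows and in 17.8% of 32851 promoter windows of the same length, so its presence is common. The difference between these shares was not tested. Overlapping Slc37a4 windows hold the same copy of the core, so the windows counted are not all separate sequences. TGTTTTG stood in 2 of the 13 windows, of G6pc and Creb3l3, and in 5.56% of all windows. The full palindrome TGACGTCA, which contains TGACG on both strands, was in none of the 13 and in 1.55% of all windows. The forkhead letters TGTTTAC, searched on both strands, were likewise in none of the 13 and in 3.17% of all windows.

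Fasting raised every gene of the set. Compared with mice on water, 10 of the 10 genes rose in fasted mice and 0 fell, against 21.7% of all genes tested that rose and 20.9% that fell. The median log2 fold change of the 10 was 0.82, beside 0.02 over all genes. The 2 groups did not overlap for 9 of the 10 genes, all but Foxo1, against 12.3% of all genes with every fasted mouse above every mouse on water.

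**Figure D1:**
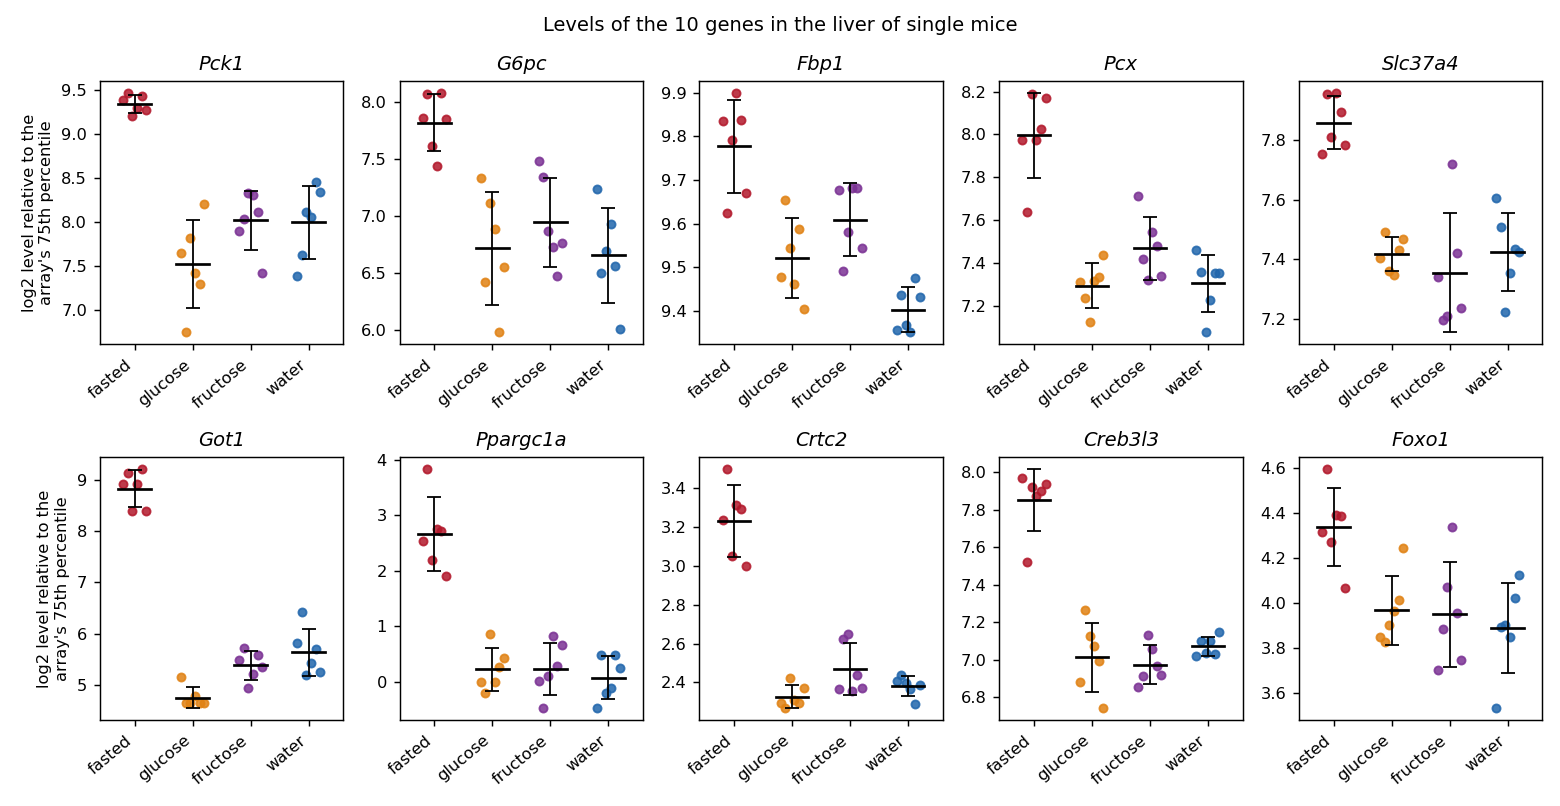
Log2 level (vertical axis, relative to the array's 75th percentile, a separate scale in each panel) of the 10 genes in each mouse, by group, with the mean and SD as bars (n = 6 per group). Fasted mice stand above all mice on water for each gene except Foxo1, while the 3 fed groups largely share 1 range, apart from Got1 on glucose and Fbp1 on fructose.

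Among the enzymes, Got1 changed most. It encodes the cytosolic aspartate aminotransferase, which turns aspartate exported from mitochondria back into oxaloacetate for the PEPCK step (probe at chr19:43574278-43574337, mm9, the build of all probe positions here). Its lowest, median and highest levels were 8.38, 8.92 and 9.22 in fasted mice, 4.64, 4.65 and 5.15 in mice on glucose, 4.93, 5.41 and 5.73 in mice on fructose, and 5.18, 5.56 and 6.41 in mice on water. Every fasted mouse lay far above every fed mouse. Got1 rose 9.16-fold in fasted over water mice (95% interval 6.99 to 12.0, log2 fold change 3.20 ± 0.19 SE, limma adjusted p = 8.18e-12). Within the 3 slides the log2 fold change was 2.86 to 3.70. A further pair of Got1 probes, at chr19:43579114-43579173 and from chr19:43579124, gave 3.57 and 3.55 and overlap each other.

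Pck1 encodes cytosolic PEPCK, which makes phosphoenolpyruvate from oxaloacetate (probe at chr2:172984307-172984366). Its levels were 9.21, 9.34 and 9.47 at the lowest, median and highest in fasted mice, 6.74, 7.53 and 8.20 in mice on glucose, 7.42, 8.07 and 8.33 in mice on fructose, and 7.39, 8.08 and 8.45 in mice on water. Fasted mice did not overlap with any fed group, and they were also closely alike, with an SD of 0.10 in fasted mice beside 0.50, 0.335 and 0.41 in mice on glucose, fructose and water. The rise over mice on water was 2.55-fold (95% interval 1.90 to 3.41, log2 fold change 1.35 ± 0.20 SE, limma adjusted p = 9.45e-06), and 1.05 to 1.61 in log2 within slides. The difference in spread between groups was not tested.

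G6pc encodes the catalytic subunit of glucose-6-phosphatase, which releases free glucose in the last step (probe at chr11:101238947-101239006). Levels ran over 7.44, 7.85 and 8.08 (lowest, median, highest) in fasted mice, 5.98, 6.72 and 7.33 in mice on glucose, 6.47, 6.82 and 7.48 in mice on fructose, and 6.01, 6.63 and 7.24 in mice on water. Fasted mice were clear of mice on glucose and on water but overlapped with those on fructose. G6pc rose 2.24-fold over mice on water (95% interval 1.63 to 3.07, log2 fold change 1.16 ± 0.22 SE, limma adjusted p = 0.000145). Its value moved between slides, from 0.77 to 1.79.

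Slc37a4 encodes the transporter that carries glucose 6-phosphate into the endoplasmic reticulum to that phosphatase (probe at chr9:44210978-44211037). Its levels were 7.75, 7.85 and 7.96 in fasted mice, 7.35, 7.42 and 7.49 in mice on glucose, 7.20, 7.29 and 7.72 in mice on fructose, and 7.22, 7.43 and 7.61 in mice on water, as lowest, median and highest. Fasted mice overlapped with none of the fed groups, and the rise over mice on water was 1.35-fold (log2 0.43 ± 0.077 SE, limma adjusted p = 7.95e-05). The other, dimmer Slc37a4 probe, at chr9:44205736-44205795, disagreed, with a log2 fold change of 0.13 ± 0.14 SE and a limma adjusted p of 0.492 over all probes.

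Pcx encodes pyruvate carboxylase, which makes oxaloacetate from pyruvate in mitochondria (probe at chr19:4621610-4621669). It had 7.64, 8.0 and 8.19 in fasted mice, 7.12, 7.31 and 7.44 in mice on glucose, 7.32, 7.45 and 7.71 in mice on fructose, and 7.08, 7.35 and 7.46 in mice on water. Fasted mice were clear of mice on glucose and on water, while mice on fructose reached into their range. Over mice on water Pcx rose 1.61-fold (log2 0.69 ± 0.088 SE, limma adjusted p = 8.94e-07).

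Fbp1 encodes fructose-1,6-bisphosphatase, the step that opposes phosphofructokinase (probe at chr13:62966175-62966234). It had 9.63, 9.81 and 9.90 in fasted mice, 9.40, 9.51 and 9.65 in mice on glucose, 9.49, 9.63 and 9.68 in mice on fructose and 9.35, 9.40 and 9.48 in mice on water. Fasted mice cleared those on water but not those on either sugar. The rise over mice on water was the smallest of the 10, at 1.30-fold (log2 0.37 ± 0.056 SE, limma adjusted p = 8e-06). It was 0.22 (adjusted p = 0.00214) with quantile normalization in the same test.

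Of the regulators, Ppargc1a moved most. Its product coactivates FOXO1 and nuclear receptors at gluconeogenic promoters (probe at chr5:51848928-51848987). It had 1.91, 2.63 and 3.84 in fasted mice, -0.19, 0.13 and 0.86 in mice on glucose, -0.47, 0.20 and 0.82 in mice on fructose, and -0.47, 0.07 and 0.49 in mice on water (lowest, median, highest). No fed mouse reached the lowest fasted mouse, though fasted mice were widely spread, with an SD of 0.66. The rise over mice on water was 5.99-fold (95% interval 4.08 to 8.82, log2 2.58 ± 0.27 SE, limma adjusted p = 5.06e-08), and the other Ppargc1a probe, at chr5:51849419-51849478, gave 2.65.

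Crtc2, the CREB coactivator whose nuclear entry follows glucagon (probe at chr3:90067812-90067871), had 3.00, 3.26 and 3.50 in fasted mice, 2.27, 2.30 and 2.42 in mice on glucose, 2.35, 2.41 and 2.65 in mice on fructose, and 2.29, 2.39 and 2.44 in mice on water. Fasted mice stood above all fed mice, and over mice on water Crtc2 rose 1.81-fold (log2 0.85 ± 0.073 SE, limma adjusted p = 2.55e-09). Its second probe, at chr3:90066577-90066636, gave 0.79.

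Creb3l3 encodes CREBH, a liver transcription factor held in the endoplasmic reticulum membrane and released by proteolysis (probe at chr10:80547080-80547139). Its levels were 7.52, 7.91 and 7.97 in fasted mice, 6.74, 7.03 and 7.26 in mice on glucose, 6.86, 6.94 and 7.13 in mice on fructose, and 7.02, 7.07 and 7.15 in mice on water. Every fed mouse was below every fasted mouse. Over mice on water Creb3l3 rose 1.72-fold (log2 0.78 ± 0.081 SE, limma adjusted p = 4.81e-08).

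Foxo1, whose product insulin excludes from the nucleus (probe at chr3:52150946-52151005), had 4.07, 4.35 and 4.60 in fasted mice, 3.83, 3.93 and 4.25 in mice on glucose, 3.70, 3.92 and 4.34 in mice on fructose, and 3.53, 3.90 and 4.12 in mice on water. The ranges overlapped, with the lowest fasted mouse below the highest mouse on water. Foxo1 rose 1.37-fold (log2 0.45 ± 0.11 SE, limma adjusted p = 0.00181), and its second probe, at chr3:52153289-52153348, gave 0.50.

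**Figure D2:**
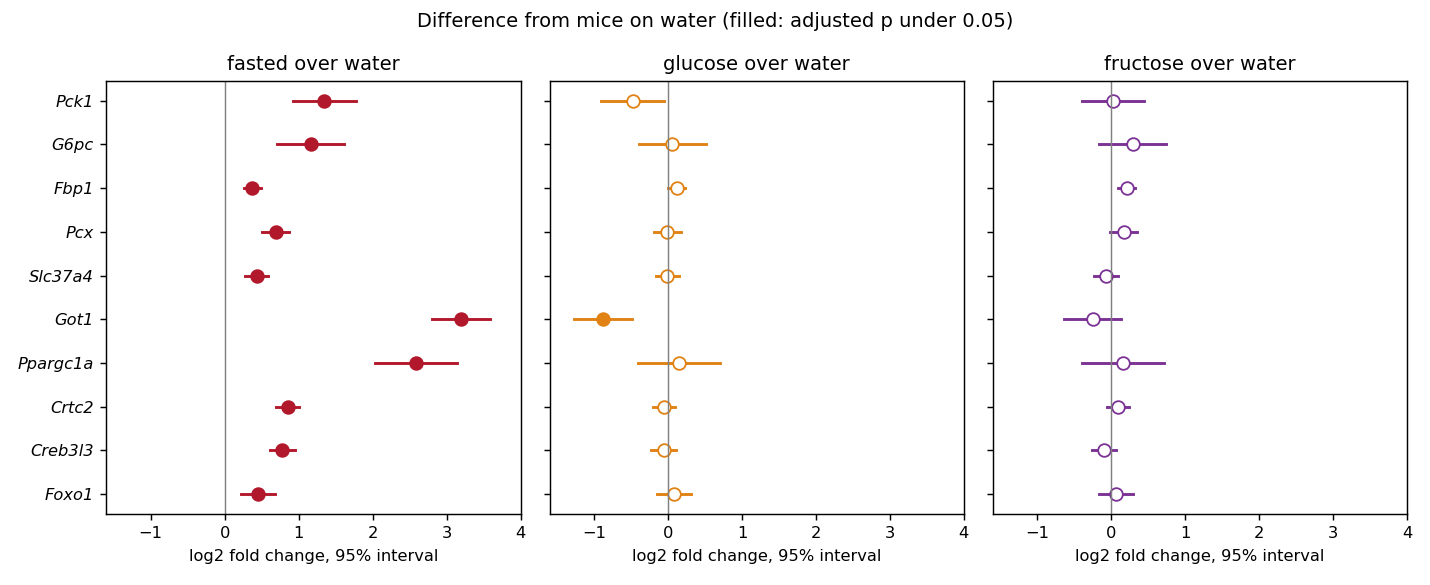
Log2 fold change over mice on water (horizontal axis) with its 95% interval for each gene, in fasted mice, mice on glucose and mice on fructose, with filled points at an adjusted p under 0.05. All 10 points are filled for fasting, between 0.37 and 3.20, and Got1 at -0.88 on glucose is the only filled point for either sugar.

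Against mice that drank sugar, fasting raised the same set of 10. The comparisons share the fasted mice, and those with water share the mice on water, so they are not independent. In fasted over glucose mice 10 of 10 rose and 0 fell, with 22.6% of all genes higher and 21.9% lower, and 8 of the 10 did not overlap against 13.3% of all genes with every fasted mouse above. In fasted over fructose mice 10 rose and 0 fell, with 23.4% of all genes higher and 21.9% lower, and 6 did not overlap against 12% of all genes. Foxo1 and Fbp1 overlapped in both comparisons, and G6pc and Pcx overlapped with fructose.

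Log2 fold changes over mice on glucose ran from 0.26 for Fbp1 to 4.08 for Got1, and over mice on fructose from 0.17 for Fbp1 to 3.45 for Got1. Pck1 was 3.55-fold higher in fasted mice than on glucose (log2 1.83 ± 0.20 SE, limma adjusted p = 1.22e-07) and 2.51-fold higher than on fructose (log2 1.33 ± 0.20 SE, limma adjusted p = 1.13e-05). Fbp1's rise over mice on sugar depended on the scaling of the arrays. With quantile normalization it was 0.08 over glucose (limma adjusted p = 0.235) and -0.08 over fructose (limma adjusted p = 0.273), and the deposited table gave 0.07 and -0.08. Foxo1 over fructose lost its call without scaling (0.26, limma adjusted p = 0.0699).

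Sugar water moved few of the 10 genes past the threshold. On glucose 0 of 10 rose and 1 fell, with 0.409% of all genes higher and 0.421% lower. The gene that fell was Got1, 1.84-fold lower on glucose (95% interval 1.40 to 2.42, log2 -0.88 ± 0.19 SE, limma adjusted p = 0.0257), and the highest mouse on glucose, at 5.15, stayed below the lowest on water, at 5.18. Apart from that mouse, those on glucose lay between 4.64 and 4.77. The share of all genes whose groups did not overlap was counted for the fasted comparisons only, so none stands beside a sugar comparison. The other Got1 probes gave -0.88 (limma adjusted p = 0.0559) and -0.93 (limma adjusted p = 0.0379) over all probes.

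The Got1 call rests near its threshold. It was lost on leaving out any 1 of the glucose replicates 2, 3, 5 or 6, or of the water replicates 1, 2 or 5, with limma adjusted p-values from 0.0523 to 0.0592 and log2 fold changes from -0.72 to -0.87. Within slides 1, 2 and 3 the log2 fold change was -1.15, -0.76 and -0.73, each below 0. With no scaling of arrays it was -0.84 (limma adjusted p = 0.0968).

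Pck1 was 0.48 lower in log2 on glucose than on water, within overlapping ranges, and did not pass (-0.48 ± 0.20 SE, limma adjusted p = 0.352, 95% interval -0.90 to -0.05). Within slides it was -0.85, -0.78 and 0.20. G6pc, whose product is specific to glucose release, had a difference of 0.06 ± 0.22 SE (limma adjusted p = 0.964), with an interval of -0.40 to 0.51 that leaves modest changes undetectable with 6 mice a group.

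On fructose 0 of the 10 genes rose and 0 fell under limma, with 0.501% of all genes higher and 0.38% lower, and 1 of the 10 had an unadjusted p under 0.05, as did 3809 of all 23966 genes. That gene was Fbp1, at 0.21 ± 0.056 SE in log2 (limma adjusted p = 0.0741), and every mouse on fructose lay above every mouse on water. No share of all genes without overlap was counted for this comparison. Fbp1 passed on fructose under 5 of the other settings tried, with limma adjusted p-values of 0.01 to 0.0411 and log2 fold changes of 0.21 to 0.36. Within slides 1, 2 and 3 it was 0.23, 0.06 and 0.33. The other 9 genes had log2 fold changes between -0.25 and 0.29 on fructose.

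Between the 2 sugars, 0 of 10 genes were higher on fructose and 0 lower under limma, with 0% of all genes called higher and 0% lower. At an unadjusted p under 0.05 there were 2 of the 10, and 1869 of all 23966 genes. These 2 were Got1, at 0.63 ± 0.19 SE in fructose over glucose (95% interval 0.24 to 1.02, limma adjusted p = 0.474), and Pck1, at 0.50 ± 0.20 SE (95% interval 0.08 to 0.92, limma adjusted p = 0.577). Mice on fructose and on glucose overlapped for both genes. For G6pc the interval of the difference was -0.23 to 0.68.

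Around these genes, most of the listed genes that bring lactate and amino acid carbon into gluconeogenesis rose in fasted over water mice. Those for glycerol mostly did not pass in that comparison. Of 16 genes for the entry of lactate, alanine and other amino acids, 13 rose and 0 fell in fasted over water mice, with a median of 0.56, while Glud1, Ldhb and Mdh1 did not pass. For this and each list below, 21.7% of all genes rose and 20.9% fell in the same comparison. Sds, serine dehydratase, rose by 1.87 ± 0.15 in log2, Gpt2, the mitochondrial alanine aminotransferase, by 1.29 ± 0.08, and Tat, tyrosine aminotransferase, by 1.28 ± 0.19 (SE). The call of Ldha, at 0.38, was lost with quantile normalization (0.06, limma adjusted p = 0.628) and with the deposited table (0.06, limma adjusted p = 0.648). For glycerol entry 1 of 4 rose, the glycerol kinase gene Gk, by 1.04 ± 0.12, and 0 fell, with a median of -0.03. Over mice on glucose, and likewise over mice on fructose, 2 of these 4 rose in fasted mice and 2 fell, Gpd1 and Gpd2. The call of Aqp9 over fructose was lost without scaling and with the deposited table.

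Of 4 genes of the opposing glycolytic steps, 0 rose and 3 fell in fasted over water mice. Pklr, the liver pyruvate kinase that opposes the PEPCK bypass, had -1.63, -1.01 and -0.48 in fasted mice, 2.63, 2.96 and 3.34 in mice on glucose, 2.30, 2.63 and 3.21 in mice on fructose, and 1.59, 2.10 and 2.23 in mice on water. Every fasted mouse lay below every fed mouse, and Pklr was 8.08-fold lower in fasted mice than on water (log2 -3.01 ± 0.18 SE, limma adjusted p = 9.8e-12). Pfkl, the liver phosphofructokinase, fell by 0.56 ± 0.07 in log2. The other gene that fell was Gckr, which encodes a regulatory protein and not a glycolytic enzyme. Its median level was 6.64 in fasted mice and 7.06 in mice on water. Pfkfb1, the liver enzyme that makes and breaks down the phosphofructokinase activator fructose 2,6-bisphosphate, lay on the other side, at 0.40 ± 0.17 SE over mice on water without passing (limma adjusted p = 0.0687), and it rose over mice on fructose by 0.64 ± 0.17 SE (limma adjusted p = 0.00413). Of the 7 reversible steps shared by both pathways, 3 rose and 1 fell, with Tpi1 at 0.52, Gpi1 at -0.34 and Pgk1 at 0.23, the call of Gpi1 being lost without scaling and that of Pgk1 with quantile normalization.

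**Figure D3:**
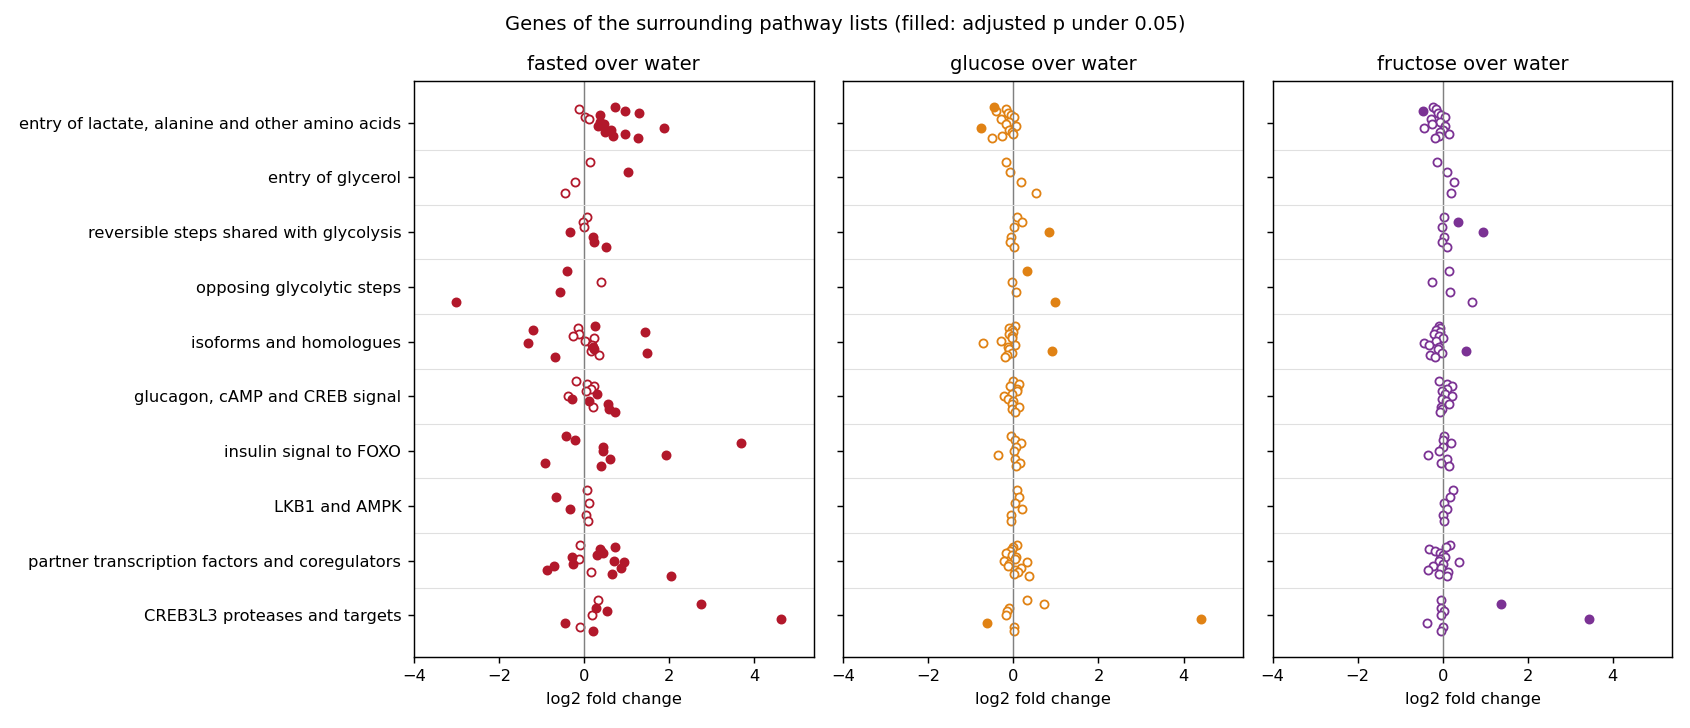
Log2 fold change over mice on water (horizontal axis) of the genes in 10 lists around the pathway, in fasted mice, mice on glucose and mice on fructose, 1 point per gene and filled at an adjusted p under 0.05. Fasting has Pklr at -3.01 and Fgf21 at 4.63 as its extremes, and few points are filled for either sugar.

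Isoforms did not follow their relatives in every case. Pck2, the mitochondrial PEPCK, did not pass with fasting (0.16 ± 0.11 SE, limma adjusted p = 0.295), where Pck1 rose, a difference between genes that was not tested. On the sugars it did rise, by 0.90 ± 0.11 on glucose (limma adjusted p = 0.000101) and 0.55 ± 0.11 on fructose (limma adjusted p = 0.0209), without overlap with mice on water in either case. Of the 16 isoforms and homologues measured, 5 rose and 3 fell with fasting, near the shares over all genes given above. Ppargc1b, the homologue of Ppargc1a, rose by 1.49 ± 0.16 and did not pass on either sugar. Creb3l4 had 1.43 ± 0.24 and Foxo6 -1.33 ± 0.51, and these probes were dim, above background on 6 of 6 fasted and 4 of 6 water arrays for Creb3l4 and on 1 and 2 of 6 for Foxo6.

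Of 13 genes of the glucagon, cAMP and CREB signal 5 rose and 1 fell with fasting, a number of calls close to that among all genes, with Sik3 at 0.73, Sik2 at 0.60 and the regulatory subunit Prkar1a at 0.57, while the glucagon receptor gene Gcgr had 0.04. SIK2 and SIK3 belong to the kinases that hold CRTC2 in the cytoplasm. Of 9 genes of the insulin signal to FOXO, 6 rose and 3 fell. Igfbp1, a classic FOXO1 target, rose 12.9-fold, Irs2 3.83-fold, and Pik3r1 fell by 0.92 in log2. For LKB1 and AMPK, 0 of 6 rose and 2 fell, Prkaa2 by 0.66 and Prkab2 by 0.32. Of 17 partner transcription factors and coregulators 10 rose and 4 fell, among them Trib3 at 2.05, Nr0b2 at 0.94 and Nr4a2 at -0.88. None of these 4 lists had a gene called on glucose or on fructose.

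Targets attributed to CREBH included Fgf21 and Apoa4. Of 9 listed proteases and targets, 5 rose and 1 fell with fasting, with Fgf21 at 4.63 ± 0.50, Apoa4 at 2.75 ± 0.22 and Apoc2 at 0.53 ± 0.09. Fgf21, a hormone secreted by the liver, had -0.10, 2.12 and 2.76 in fasted mice, 0.41, 1.43 and 2.56 in mice on glucose, -0.43, 0.40 and 1.75 in mice on fructose and -3.87, -2.62 and -2.07 in mice on water. Mice on water lay below all other groups. Fgf21 was 21.2-fold higher on glucose and 10.9-fold on fructose than on water, while Creb3l3 itself did not pass on either sugar (-0.06 and -0.10). Apoa4 rose on fructose by 1.38 ± 0.22, and Hamp, the hepcidin gene, fell on glucose by 0.63 ± 0.14, a call that was lost without scaling.

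On glucose the amino acid entry list had 0 of 16 higher and 2 lower, Sds at -0.76 ± 0.15 and the glutaminase gene Gls2 at -0.46 ± 0.10, the call of Gls2 being lost without scaling. On fructose it had 0 higher and 1 lower, the alanine aminotransferase gene Gpt at -0.48 ± 0.10, a call also lost without scaling. Pklr rose on glucose by 0.98 ± 0.18, and so did Gckr by 0.33, a call lost without scaling. Of the shared steps Gpi1 rose on glucose by 0.83 ± 0.11 and on fructose by 0.94 ± 0.11. Eno1 also rose on fructose, with a median level of 7.88 there and 7.51 on water.

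Differences between mice of the same group were examined as deviations from group means over 24 arrays, for the 45 pairs of the 10 genes. Only Pck1 with Foxo1 passed, with Pearson's r = 0.686 and Spearman's rho = 0.664 (two-sided permutation within groups, p = 0.00028, adjusted p = 0.0126 for r and 0.0355 for rho). After leaving out the 2 arrays farthest from the median it was 0.628 (permutation adjusted p = 0.0463), and with slide means removed 0.793 (permutation adjusted p = 0.00225). Within groups the r was 0.688 in fasted mice, 0.666 on glucose, 0.768 on fructose and 0.861 on water. Pck1 and G6pc, both known targets of FOXO1, had r = -0.0198 over the same 24 arrays (permutation adjusted p = 0.963). G6pc with Foxo1 had the opposite sign to Pck1 with Foxo1, at r = -0.443, and did not pass (permutation adjusted p = 0.313). Next came Ppargc1a with Foxo1 (r = 0.62) and Pcx with Crtc2 (r = -0.655), each at a permutation adjusted p of 0.0547. In that order, the permutation adjusted p was 0.365 and 0.346 without the 2 farthest arrays, and 0.117 for each with slide means removed. With quantile normalization it was 0.0295 and 0.0175.

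**Figure D4:**
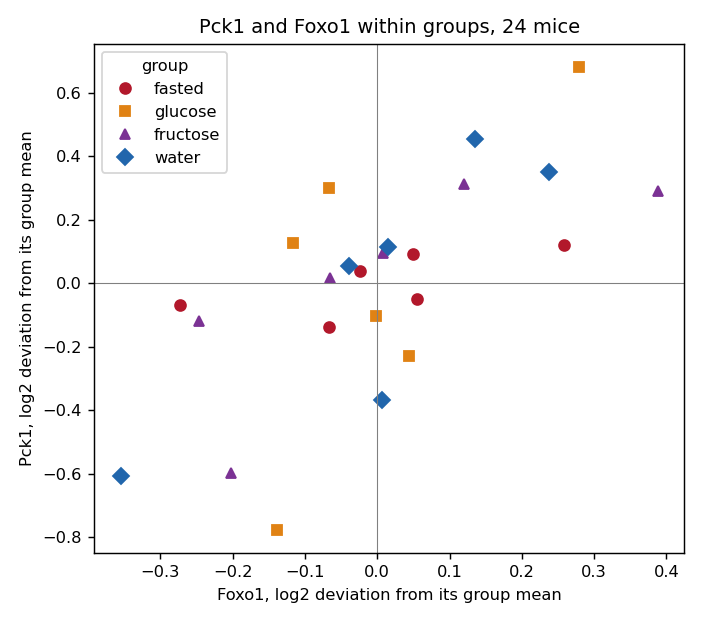
Deviation of Pck1 from its group mean (vertical axis, log2) against that of Foxo1 (horizontal axis, log2) in 24 mice, with a symbol for each group. Mice high in Foxo1 for their group tended to be high in Pck1, with r = 0.686.

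Over 13809 other genes above background on all arrays, with clone, predicted-locus and transcript identifiers left out, those most like Pck1 in these deviations were Ip6k2 (r = 0.817), Slc25a51 (0.801) and Frat1 (0.797), and Foxo1 ranked at 31. Those most like G6pc were Ppwd1 (0.759), Kdm4c (0.751) and Lamc1 (0.725). For Ppargc1a they were Ahi1 (0.828), Nedd1 (0.794) and Ercc5 (0.791). These are the highest of many values, given as a description with no test.

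Markers of liver cells were measured beside these results. Of 6 hepatocyte markers 1 rose and 1 fell in fasted over water mice, and Alb had -0.03. A summed log2 level is the log2 of the added signals of a list, so the brightest genes weigh most and dim ones hardly count. For the hepatocyte markers this sum was 12.24 to 12.36 in fasted and 12.10 to 12.32 in water mice. It was lower in mice on sugar, at 12.07 to 12.17 on glucose and 11.97 to 12.09 on fructose. Over mice on glucose 2 of the 6 rose and 1 fell in fasted mice, and over mice on fructose 4 rose and 0 fell. Some of these calls depended on the scaling. Those of Apoa1 over glucose and of Alb and Serpina1a over fructose were lost with quantile normalization, no scaling and the deposited table. With quantile normalization Alb and Serpina1a were both at -0.02 over fructose. Periportal hepatocytes, where gluconeogenesis is strongest, had 5 of 8 markers higher and 1 lower in fasted mice, with a summed log2 level of 10.30 to 10.53 in fasted and 10.17 to 10.35 in water mice, and Sds and Gls2 are also in the entry list. Pericentral markers had 1 of 8 higher and 4 lower, with sums of 10.62 to 10.75 in fasted and 10.57 to 10.76 in water mice. On glucose 1 periportal marker, Hsd17b13, rose and 2, Sds and Gls2, fell, with sums of 9.85 to 10.19. The calls of Hsd17b13 and Gls2 were lost without scaling. On fructose none of the 8 passed, with sums of 9.89 to 10.25. Pericentral sums were lower on sugar too, at 10.35 to 10.53 on glucose and 10.29 to 10.53 on fructose. Of the 8 pericentral markers 0 rose and 1 fell on glucose, Cyp1a2, a call also lost without scaling, and none passed on fructose. Other cell types in fasted over water mice had 2 of 6 Kupffer markers higher and 0 lower, 3 of 6 endothelial markers higher and 1 lower, 1 of 5 stellate markers higher and 3 lower, and 0 of 4 cholangiocyte markers higher and 2 lower. Adipocyte markers had 2 of 4 higher and 0 lower, with summed levels of 2.22 to 2.88 in fasted and 1.83 to 2.14 in water mice, and Adipoq was above background on 6 of 6 fasted and 1 of 6 water arrays. Of 5 neutrophil and lymphocyte markers 0 rose and 1 fell, but fasted mice were widely spread, with summed levels of 1.15 to 4.53 in fasted and 1.59 to 2.02 in water mice. The neutrophil gene S100a9 ran from -2.77 to 4.00 in fasted mice (SD 2.70) and from -1.23 to -0.02 in mice on water (SD 0.47), and its log2 fold change was 1.56 ± 0.79 SE (limma adjusted p = 0.122). Of 2 measured kidney tubule markers 0 rose and 1 fell, as of 2 measured pancreatic acinar markers, and the 1 measured muscle marker did not pass. The part of these markers in the results was not tested.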

How the data were processed

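Liver RNA of 24 single mice was measured on 1-colour Agilent arrays. Per the file headers, the deposited intensity values are processed signals from Agilent Feature Extraction 10.10.1.1, with background subtracted. The deposited log2 series table holds the authors' processed values of the same arrays and was used as an alternative. Control spots and outlier spots were left out, spots of a probe were averaged, and log2 signals were scaled by the array's 75th percentile. Probes had to be well above background on 6 of 24 arrays, which kept 36230, and a gene was its kept probe of highest mean. The 4 groups were fitted together with limma 3.58.1 in R 4.3.3 (lmFit, eBayes), checked on simulated data. Permutations used NumPy 2.4.6 with 100000 draws. Arrays were grouped by the labels, and the number of arrays limits the precision. The 10 genes, the lists around them and the tests were chosen with earlier results of these data known. From each list up to 3 called genes with the largest log2 fold change were named, and genes outside that rule were chosen after their values were seen. Alternatives were normexp background correction, quantile normalization, no scaling, the deposited table, other filters, other probe rules, slide or replicate number as a block, single slides, the compared groups alone, and each array left out. The design gives no pairing of the mice by replicate number. Of 36 same-numbered pairs 9 correlated above 0.1, and r over all 36 ran from -0.173 to 0.22. Its mean was 0.0335, beside -0.00673 for pairs with different numbers. Of 24 arrays, 8 were best matched by their own number. The probes' sequences are not printed. A listed gene of the opposing glycolytic steps is not reported here.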

Additional observations from a re-analysis of the deposited data

Results flagged for a closer look

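Of 40 sets of 6 values, 1 per gene and group, 2 held a mouse far from the others relative to the range of its group, where chance marks about 1 in 20. Got1 was at 5.15 in the glucose replicate 1, above a nearest value of 4.77, and without that array the log2 fold change on glucose over water was -0.96 (limma adjusted p = 0.0273). Creb3l3 was at 7.52 in the fasted replicate 2, below a nearest value of 7.87, and without that array its log2 fold change in fasted over water mice was 0.85 (limma adjusted p = 4.14e-09).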

How the results depend on the processing

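The 10 genes called higher in fasted over water mice stayed at 10 under every array left out and under the other settings that used all 3 slides. On glucose over water the count of 1 became 0 without scaling and within slides 1, 2 and 3, and ranged from 0 to 1 with 1 array left out. On fructose over water the count of 0 became 1 with normexp, quantile normalization, no scaling, the deposited table, and a trended robust variance. Within slides 1, 2 and 3, where 2 arrays meet 2, the calls were 8, 7 and 7 in fasted over water mice, 7, 9 and 6 in fasted over glucose mice, and 7, 8 and 5 in fasted over fructose mice. In fasted over water mice Foxo1 was called within none of the slides and Slc37a4 within slide 2 alone, each with a positive log2 fold change in all 3. Fbp1 in fasted over fructose mice turned to -0.0758 with quantile normalization and to -0.0756 with the deposited table. The 45 gene pairs gave 3 passing pairs with quantile normalization in place of 1. Without scaling, the median log2 fold change of all genes was 0.144 in fructose over water mice, where 1956 genes rose and 36 fell, against 120 and 91 with scaling. The split was then 64 and 13 in glucose over water mice, against 98 and 101, and 3308 and 6840 in fasted over fructose mice, against 5598 and 5247. Over all settings other than single slides, genes called numbered 77 to 321 on glucose, against 199, and 65 to 1992 on fructose, against 211. Between fructose and glucose they numbered 0 to 4, against 0. The cause of these changes was not tested. The replicate numbers were not taken to pair the mice, and with a replicate block 10 genes were called in fasted over water mice and no count of the 10 changed. With 6 mice a group, small differences may have gone uncalled. The 95% intervals given are not adjusted for the number of genes tested. An interval can therefore leave out 0 without a call, as for Pck1 on glucose over water (-0.90 to -0.05).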
